A study of Mus musculus with 2 samples.

Results

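Cells with transcripts of natural killer (NK) cells and group 1 innate lymphoid cells (ILC1) were chosen by measured values, raw counts of unique molecular identifiers (UMIs, each standing for a captured RNA molecule), among tumour-infiltrating leukocytes. What those genes show in the members is therefore a description. A barcode with 200 or more genes was a member when Ncr1, Klrb1c, Eomes and Klre1 summed to 2 or more UMIs, Ncr1 and Klrb1c to 1 or more, Cd3e, Cd3d and Cd3g to 1 at most, Csf1r and Csf3r to 1 at most, Cd79a to 1 at most, and Siglech was at 0. The rule found 149 members among 9255 barcodes. The placebo library held 48 of 3490 (1.38%, exact 95% binomial interval 1.02 to 1.82%), and the E2 library 101 of 5765 (1.75%, 1.43 to 2.12%). All 149 members entered the sums described here.

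Both libraries were made from live CD45+ cells sorted by flow cytometry out of dissociated tumours of C57BL6\J mice. Every mouse had been ovariectomised, which removes the main source of estrogen, and was given either placebo or E2 (estradiol), so the placebo animals lack ovaries too. RNA was counted at the 3′ end with 10x Genomics Chromium. Each group held 1 library. Not given in the sources used here are the kind of tumour, how much E2 was given and for how long, the age of the mice and how many mice went into a library. With 1 library per group no difference has a replicate check and none was tested: intervals cover counting error only, and cells of 1 library are not replicates. The files used here hold no cell annotation.

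NK cells are innate lymphocytes that kill cells through perforin and granzymes and release interferon-gamma and chemokines. Their activity is set by a balance of activating receptors such as NKp46 (Ncr1) and inhibitory receptors of the Ly49 (Klra) and NKG2 families, and their maturation in the blood needs the transcription factor Eomes. ILC1 share Ncr1 and NK1.1 (Klrb1c) with NK cells but reside in tissue, as a rule without Eomes. In tumours, cells between the 2 states that carry the integrins CD49a (Itga1) and CD103 (Itgae) and granzyme C (Gzmc) have been described, and transforming growth factor beta (TGF-beta) is known to drive NK cells towards them.

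Placebo members held 305550 UMIs in all and E2 members 823907. A placebo member had between 2463 and 15401 UMIs (median 5686.5), and an E2 member between 2184 and 22649 (median 6988). Over all deposited barcodes the medians were 5128 and 8049 UMIs. Of the deposited barcode sequences 95 occurred in both libraries, but 0 member barcodes did. The comparison population was CD8 T-like cells, with 2 or more CD3 UMIs and 1 or more of Cd8a and Cd8b1. They had no Ncr1 or Klrb1c UMI and the members' limits on Csf1r, Csf3r, Cd79a and Siglech. They numbered 234 and 145, with medians of 5055 and 4937 UMIs. In sums over cells, fewer cells with a transcript and less RNA per cell cannot be told apart, so shares of cells are given beside the sums.

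Transcripts outside the rule bore out the NK label. The sum over 16 further NK markers, among them Klrd1 (CD94), Nkg7 (a granule protein), Gzma and Tbx21 (T-bet), ran from 12 to 270 UMIs per placebo member (median 97) and from 14 to 316 per E2 member (median 127), so 0 members lacked them. Nkg7 UMIs were found in 47 of 48 and 101 of 101 members. After thinning every cell to 2000 UMIs, Gzma was seen in 56.2% and 52.5% of members against 3.46% and 2.14% of CD8 T-like cells. Xcl1, Prf1 and Fcer1g were likewise in larger shares of members in both libraries. Other markers of the 16 separated the 2 populations less. Ccl5 was seen in 68.8% and 70.3% of members against 59.3% and 62.9%. Gzmb was seen in 20.8% and 28.7% against 22.5% and 15.7%, so in the placebo library its share was not larger in members. Those CD8 T-like cells were taken without Ncr1 or Klrb1c UMIs, which leaves out T cells with these NK transcripts. The contrast thus depends partly on that choice. No member was too shallow for that thinning.

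Markers of other lineages were sparser than NK markers in the members. Neutrophil markers summed to at most 1 UMI in any placebo member and 2 in any E2 member, with Retnlg and Mmp9 at 0. The B cell markers Ms4a1 and Pax5, the T cell genes Cd8b1 and Cd5, the macrophage genes Adgre1 and Ms4a7 and the type 3 innate lymphoid (ILC3) genes Il22 and Il23r were also at 0 in both libraries. Other genes of those lists were present. ILC3 markers were at 0 in only 18 of 48 and 36 of 101 members, with highest sums of 12 and 28 UMIs. B cell markers were at 0 in 19 and 36 members, with highest sums of 5 and 7. Dendritic cell markers were at 0 in 30 and 58, with highest sums of 20 and 23. Monocyte and macrophage markers summed to 0 to 11 UMIs per placebo member (median 3) and 0 to 24 per E2 member (median 5). T cell markers summed to 1 to 16 and 0 to 29 UMIs, mostly of the receptor constant gene Trbc1, which had 216 and 398 UMIs, while Trac had 14 and 7. Fibroblast and epithelial markers were at 0 in 47 of 48 and 96 of 101 members. ILC2 markers were at 0 in 29 of 48 and 56 of 101 members, with a highest sum of 9 UMIs in a placebo member and 113 in an E2 member. The part of these transcripts in the differences below was not tested, except where values without single members are given.

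The ILC1 side of the label was thinly covered. Of the residency markers, Itga1 had 18 UMIs in 9 of 48 placebo members and 55 in 30 of 101 E2 members. Cxcr6, a chemokine receptor of resident lymphocytes, had 1 and 12 UMIs, Cd200r1 0 and 8, and Zfp683, which encodes the residency factor Hobit, 0 and 5. Itgae had 4 and 2 UMIs in members, against 3637 and 4233 UMIs in the other barcodes, so the members held 0.11% and 0.0472% of it. No member is called an ILC1 here, and the subsets below go by the genes that define them.

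The edge of the rule was narrow. Only 2 placebo and 1 E2 members had a sum of exactly 2 UMIs over the 4 defining genes, with Klrd1 at 2443 and 1209 CPM, a gene's UMIs per 1000000 UMIs of the cells summed. Just outside, 6 and 8 barcodes had a sum of 1, with Klrd1 at 256 and 176 CPM and Gzma at 0. A further 16 and 26 barcodes met the NK limits but had more than 1 CD3 UMI. Their Klrd1 stood at 937 and 790 CPM, close to the members' 975 and 857 CPM, so barcodes with NK transcripts and CD3 transcripts lay next to the members and were left out. Gzma in them stood at 180 and 991 CPM, and the CD8 T-like cells leave them out as well.

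By the class genes themselves, which chose the classes and are given as a description, most members were Eomes-positive. An Eomes UMI was found in 37 of 48 (77.1%, interval 62.7 to 88.0%) placebo members and 65 of 101 (64.4%, interval 54.2 to 73.6%) E2 members. Thinned to 2000 UMIs, those shares were 45.8% and 33.7%. Gzmc was found in 7 of 48 (14.6%, interval 6.07 to 27.8%) and 25 of 101 (24.8%, interval 16.7 to 34.3%), and Itgae in 3 and 1 members. The members without Itgae or Gzmc but with Eomes, called Eomes-only, numbered 33 and 49. Members with Itgae or Gzmc but no Eomes UMI numbered 4 and 9, those with both 4 and 16, and those with neither 7 and 27. Because Itgae was so rare, the Itgae- or Gzmc-positive members were in effect Gzmc-positive members. Median depth differed among the classes: 5635 and 7819 UMIs in Eomes-only members, 6137 and 7945 in those with Itgae or Gzmc alone, 10049.5 and 11541.5 in those with both, and 4534 and 4964 in those with neither.

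Transcripts of 2 granzyme genes marked partly different members. Gzmc is on chromosome 14 (mm10, GENCODE M21, 56231441 to 56234656, minus strand) in the granzyme cluster with Gzmb, Gzmd, Gzme and Gzmf, and Gzma is on chromosome 13 (113093825 to 113100981, minus strand). RefSeq windows from 250 bases before to 50 after the start sites of Gzma and Gzmc are shown because these genes marked partly different members. Gzmf is shown because, as a near-copy of Gzmc, it can share reads with it. The build is GRCm38.p6, and all 3 lie on the minus strand at chr13:113100932-113101231, chr14:56234608-56234907 and chr14:56211358-56211657. Capitals mark TGTGGT, the core that Runt (RUNX) factors bind, or its reverse complement ACCACA.
Gzma: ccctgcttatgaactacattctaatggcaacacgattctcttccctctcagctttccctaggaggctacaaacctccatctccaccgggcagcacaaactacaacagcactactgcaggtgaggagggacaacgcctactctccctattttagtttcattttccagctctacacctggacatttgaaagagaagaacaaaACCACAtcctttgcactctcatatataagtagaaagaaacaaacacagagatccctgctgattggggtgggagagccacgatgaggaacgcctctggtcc
Gzmc: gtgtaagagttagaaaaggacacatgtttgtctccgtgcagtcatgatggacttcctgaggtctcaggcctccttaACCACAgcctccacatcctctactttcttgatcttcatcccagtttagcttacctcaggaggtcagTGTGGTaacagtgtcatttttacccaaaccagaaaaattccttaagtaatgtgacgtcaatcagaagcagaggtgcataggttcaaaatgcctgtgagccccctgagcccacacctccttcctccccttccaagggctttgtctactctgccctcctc
Gzmf: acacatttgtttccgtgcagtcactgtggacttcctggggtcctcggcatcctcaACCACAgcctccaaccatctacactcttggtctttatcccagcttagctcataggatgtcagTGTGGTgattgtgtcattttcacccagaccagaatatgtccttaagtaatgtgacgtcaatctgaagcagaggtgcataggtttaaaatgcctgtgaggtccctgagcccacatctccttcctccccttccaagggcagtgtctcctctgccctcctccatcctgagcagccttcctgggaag
TGTGGT was searched on both strands and occurred in 16.8% of 32851 RefSeq windows of 300 bases. It lay 50 bases before the Gzma start, 174 and 108 before that of Gzmc, and 195 and 133 before that of Gzmf. The T-box half-site TCACAC, the kind of site that Eomes and T-bet bind, is found in 14.5% of all windows and in none of these 3. The Gzmb window, also searched but not shown, has TCACAC 15 bases before the start and TGTGGT 93 and 34 bases before it. The Gzmc and Gzmf windows were identical at 73.5% of 325 aligned columns, those of Gzma and Gzmc at 43.8% of 352. A match or its absence describes the letters in these windows only.

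Gzma encodes granzyme A, the tryptase-like granzyme of NK cells. In the placebo library a Gzma UMI was found in 0 of 7 Gzmc-positive members and 28 of 41 Gzmc-negative members. In the E2 library it was found in 10 of 25 and 54 of 76. Of members with 5 or more Gzmc UMIs, 0 of 6 placebo and 7 of 16 E2 members had a Gzma UMI. Gzmc-positive cells were deeper (median 9236 and 9497 UMIs against 5469 and 6013). Thinned to 2000 UMIs, Gzma was present in 0 of 7 placebo members with Gzmc, where a count of 0 allows a share of up to 42.9% by the limit of 3 counts (the exact interval ends at 41.0%), against 27 of 41 (65.9%, interval 49.4 to 79.9%) without. The E2 library gave 6 of 25 (24%, interval 9.36 to 45.1%) with Gzmc against 47 of 76 (61.8%, interval 49.98 to 72.8%) without. The direction was thus the same in both libraries, and the intervals of the 2 E2 shares do not overlap.

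**Figure D1:**
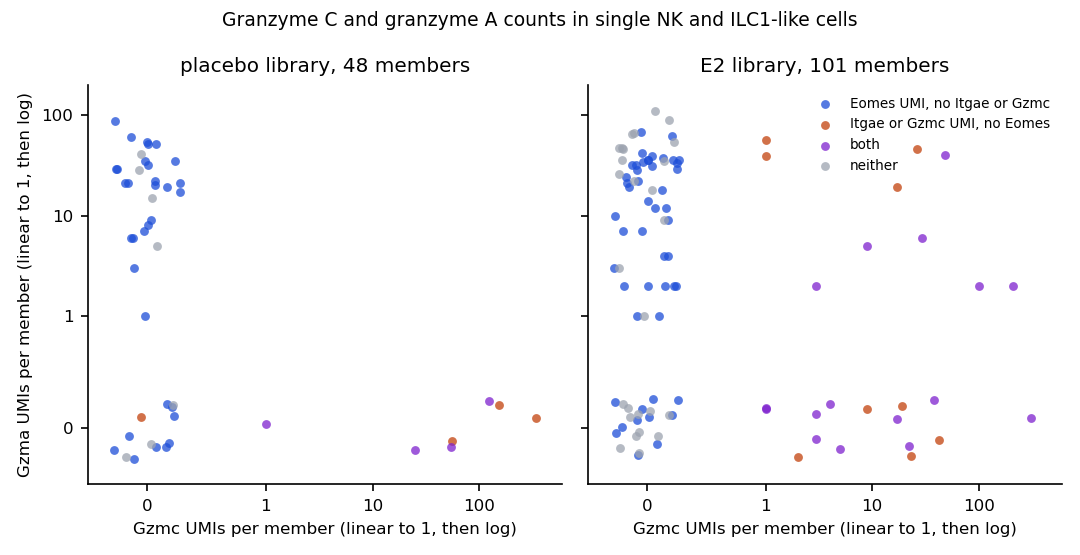
Gzmc UMIs (horizontal axis) against Gzma UMIs (vertical axis) in each of the 48 placebo and 101 E2 members, on axes that are linear near 0 and logarithmic above. Each point is a cell coloured by class. No placebo member has both transcripts, and 10 E2 members do.

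Gzmc was concentrated in few cells. The 7 placebo members held 1, 25, 54, 56, 122, 153 and 342 Gzmc UMIs, and the top 3 held 81.9% of the sum. In the E2 library the 25 positive members had between 1 and 309 UMIs with a median of 17, and 10 of them had 5 or fewer. Gzmc was at 2464 CPM in placebo and 1139.7 CPM in E2 members, although the share of members with it was larger in the E2 library. Gzmc was not confined to the members: 54 placebo and 51 E2 barcodes outside the rule carried it, 35 and 38 of them with 2 or more CD3 UMIs. Gzmd had 0 and 6 UMIs and Gzme 0 and 1, and reads of these near-identical genes cannot be assigned with certainty.

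Shares of 5 other transcripts differed in the same direction in both libraries between Gzmc-positive and Gzmc-negative members. Cxcr4, the receptor for the bone marrow and stromal chemokine CXCL12, was detected after thinning in 1 of 7 and 1 of 25 Gzmc-positive members, against 21 of 41 and 30 of 76 others. Ccl5, a chemokine gene of resting and activated killer cells, was detected in 3 of 7 and 14 of 25 against 30 of 41 and 57 of 76. Both were found in a smaller share of the members with Gzmc. The opposite held for Itga1, the collagen-binding integrin of ILC1, at 2 of 7 and 5 of 25 against 1 of 41 and 4 of 76. Xcl1, the chemokine that attracts cross-presenting dendritic cells, was detected in 7 of 7 and 20 of 25 against 28 of 41 and 49 of 76. The calcium-binding protein gene S100a4 was at 5 of 7 and 17 of 25 against 7 of 41 and 37 of 76. With 7 placebo cells the placebo intervals are wide. In the E2 library the intervals of the 2 shares overlap for Ccl5, Itga1, Xcl1 and S100a4, and of these 5 genes only for Cxcr4 do they not.

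Other markers did not keep 1 direction. Klra4 (Ly49D, an activating receptor) was detected after thinning in 0 of 7 Gzmc-positive placebo members against 16 of 41 others, but in 14 of 25 E2 members against 24 of 76. Gzmb (granzyme B) was at 1 of 7 against 9 of 41, and 11 of 25 against 18 of 76. In the placebo library both were seen in a smaller share of Gzmc-positive members, and in the E2 library in a larger one.

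A different division was then taken over all genes, Eomes-only members against members with Itgae or Gzmc and no Eomes, within each library. Members with both or with neither, which the comparison by Gzmc alone had included, were left out. A log2 ratio was formed from CPM plus a pseudocount of 20, and a gene was called past 2-fold in the same direction in both libraries. Of 3383 genes with 30 or more UMIs, 70 were called (2.07%), 48 higher in Eomes-only members (1.42%) and 22 lower (0.65%). Those 48 are 7.15% of the 671 genes called higher in the placebo library. Of all tested genes, the E2 library called 5.97% higher. They are 23.8% of the 202 genes called higher in the E2 library. Of all tested genes, the placebo library called 19.8% higher. Both shares lie near those over all genes, so the number of shared higher genes is not read as a result. The 22 lower genes are 6.21% of the 354 called lower in the placebo library, beside 2.48% of all tested genes in the E2 library. They are 26.2% of the 84 called lower in the E2 library, beside 10.5% of all tested genes in the placebo library. The smaller class is 4 and 9 cells, and the split was 126 higher and 6 lower under TMM scaling, and 312 and 4 without the top member of each gene in each class and library. An exact paired permutation test over the 2 libraries cannot go below p = 0.5. Scaling moved the median over all genes from 0.11 to 0.55 in the placebo library and from 0.03 to 0.28 in the E2 library, so a ratio is read beside those medians.

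Higher in Eomes-only members was Cxcr4, at 476 against 78.9 CPM in the placebo library and 281 against 39.4 CPM in the E2 library. Its log2 ratios were 2.33 and 2.34, nearly equal in the 2 libraries. Ccl5 was at 4278 against 237 CPM and 3115 against 1051 CPM, and Satb1, a chromatin organiser of lymphocytes, at 462 against 78.9 and 247 against 78.9 CPM. Myb, a transcription factor of progenitors and immature lymphocytes, had 18 UMIs against 0 and 33 against 0. Cd74, the invariant chain of antigen presentation, which is also a marker of dendritic and B cells, had 14 against 0 and 31 against 0 UMIs. For both genes the smaller class held so few cells that 0 is not informative on its own. The other genes in this direction, Socs1, Trim12a, Mtf2, Ube2j2, Arhgef2, Fhl2 and Sirt7, rest on smaller sums, and 6 of these 7 turned to the other sign in a library under some alternative.

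Lower in Eomes-only members, and so higher beside Itgae or Gzmc, were the actin-capping gene Capg, Itga1, and the chemokine genes Ccl4 and Xcl1. Itga1 was at 34.0 against 158 CPM in the placebo library and 38.4 against 158 CPM in the E2 library. Xcl1 was at 734 against 4497 and 1179 against 2392 CPM. Both were higher beside Itgae or Gzmc in each library. Capg was at 34.0 against 355 and 24.0 against 237 CPM, but all its placebo UMIs in the smaller class came from 1 cell. Ccl4 was at 661 against 3669 and 562 against 1511 CPM. Without the top cell of each class the placebo log2 ratios of Capg, Itga1 and Ccl4 changed sign, to 1.18, 1.01 and 2.97. Cd244, the 2B4 receptor of NK cells, lay at -1.32 and -1.16, and Tnfsf10, the death ligand TRAIL of ILC1, at -2.59 and -1.06.

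Against every Itgae- or Gzmc-positive member, which enlarges that class to 8 and 25 cells, 17 genes were higher and 13 lower in Eomes-only members in both libraries. Within single libraries, 375 genes (9.15% of those tested, placebo) and 72 (1.76%, E2) were higher. Lower were 194 (4.73%) and 24 (0.586%). Cxcr4 then lay at 1.59 and 2.12, Ccl5 at 4.18 and 1.92, Itga1 at -1.61 and -1.41, and Capg at -1.84 and -2.43. These 4 kept their direction and stayed past 2-fold in both libraries. Gzma, at 3126 against 0 CPM and 1938 against 888 CPM, was past 2-fold in both libraries with the larger class, while with the smaller class its E2 log2 ratio was -0.12. Gzmb was at 136 against 998 and 115 against 900.3 CPM, but all 69 placebo UMIs of the positive members were in 1 cell. By cells, a Gzmb UMI was found in 1 of 7 Gzmc-positive and 13 of 41 Gzmc-negative placebo members, the other direction, and in 19 of 25 and 21 of 76 E2 members. By list, with the smaller class of 4 and 9 cells again, the ILC1 and residency genes had 14 tested, 0 higher and 2 lower in Eomes-only members, with medians of -0.47 and -0.40. The mature circulating NK genes had 14 tested and 0 called in either direction, with medians of 1.28 and -0.19, and the TGF-beta pathway 9 tested, 0 higher and 1 lower, with medians of 0.04 and 0.15. All 3383 genes had medians of 0.11 and 0.03.

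**Figure D2:**
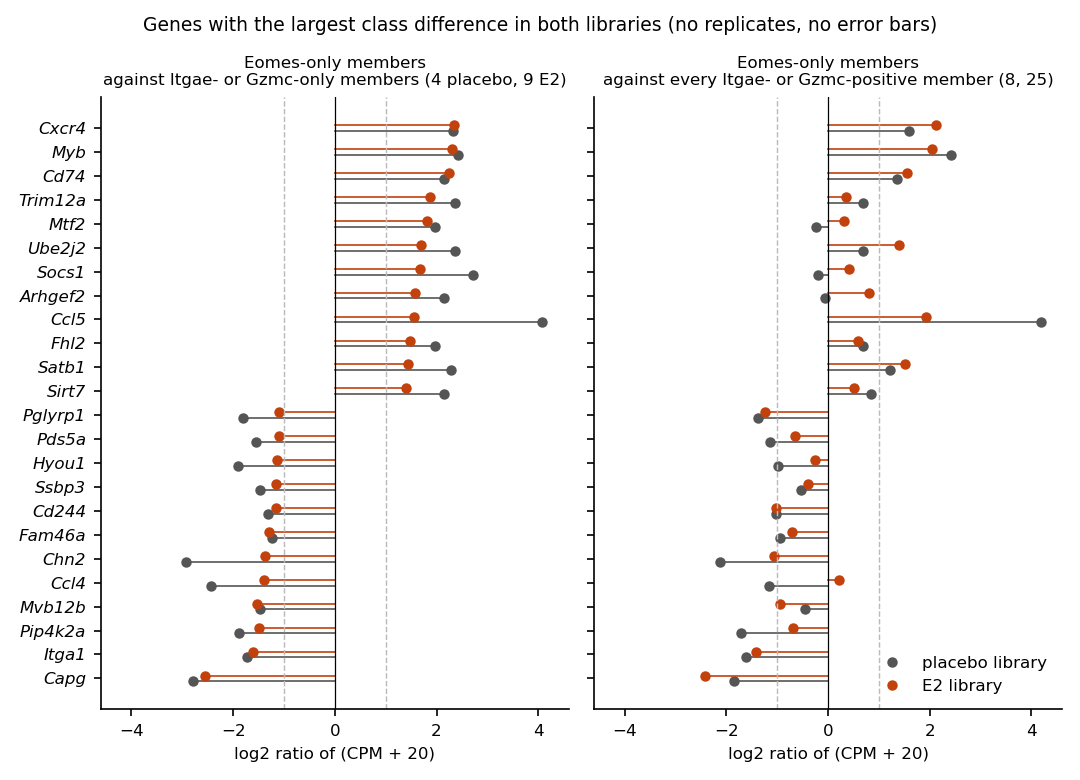
Log2 ratio of CPM plus 20 in Eomes-only members over members with Itgae or Gzmc and no Eomes UMI (left, smaller class of 4 and 9 cells) and over every Itgae- or Gzmc-positive member (right, 8 and 25 cells), 1 point per gene and library. Cxcr4 and Ccl5 lie to the right of 0 and Capg and Itga1 to the left in both libraries and both panels.

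Between the groups, E2 members were set against placebo members in the same way, on 4739 genes with 30 or more UMIs. Of these, 81 were past 2-fold (1.71%), 48 higher (1.01%) and 33 lower (0.696%, Gzmc among them) in the E2 library, and the median log2 ratio was -0.05. TMM scaling gave 74 higher and 17 lower with the median at 0.08, and DESeq2 size factors 72 and 17 with the median at 0.07, so the balance of directions moves with the scaling. The call counts of lists below are read against these shares, and a list's median against the median of all genes. Counts above and below 0 are read against 2142 above and 2597 below over all tested genes.

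Chemokine and egress receptors guide cells into and out of tissue. Their list had 8 of 15 genes tested, 3 above and 5 below 0, 0 past 2-fold higher and 1 lower, with a median of -0.17. Cxcr4 was at 429 and 221 CPM and Ccr2, the receptor for inflammatory monocyte chemokines, at 376 and 546 CPM, neither past 2-fold. The sphingosine receptor S1pr1 had 3 and 2 UMIs, too few to compare.

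Genes of mature circulating NK cells mostly lay below 0. Of 21 genes 17 were tested, 2 lay above and 15 below 0, 0 were past 2-fold higher and 2 lower, with a median of -0.23 against -0.05 over all genes. Emb, the adhesion protein embigin, was 1 of these 2, at 265 and 117 CPM. Klf2, the factor that drives egress receptors, was at 105 and 58.3 CPM, and Irf8, needed for NK maturation, at 982 and 558 CPM, both short of 2-fold. Zeb2, a terminal maturation factor, was at 65.5 and 63.1 CPM.

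Transcription factors of NK cells and ILC gave 23 of 30 tested, 5 above and 18 below 0, none past 2-fold higher and 2 lower, with a median of -0.54. Tcf7, which encodes TCF-1, a factor of immature and self-renewing lymphocytes (chromosome 11, 52252371 to 52283014, minus strand), had 71 UMIs in 35 of 48 placebo members and 69 in 37 of 101 E2 members. That was 232 and 83.7 CPM, 2.77-fold lower in the E2 library (1.96 to 3.92). Thinned shares were 13 of 48 (27.1%, interval 15.3 to 41.8%) and 10 of 101 (9.90%, interval 4.85 to 17.5%), while CD8 T-like cells stood at 37.2% and 34.3%. Tcf7 stayed past 2-fold in all 14 alternatives tried, of which the 3 settings of the UMI filter cannot change a ratio. Nfil3, a factor NK cells need to develop, was at 147 and 59.5 CPM, and fell short of 2-fold after thinning, at -0.61. Tbx21 was at 160.4 and 119 CPM, Runx3 at 429 and 429.7 CPM, and Id2, the factor common to ILC, at 445 and 592 CPM, none past 2-fold. Eomes, a gene of the rule, was at 357 and 189 CPM.

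NK receptors had 24 of 30 genes tested, 8 above and 16 below 0, and 0 past 2-fold, with a median of -0.16. The signalling adapters Fcer1g and Tyrobp (DAP12), which carry the signal of activating receptors, were at 1289 and 2113 CPM, and at 2081 and 2435 CPM. In CD8 T-like cells, taken without Ncr1 or Klrb1c UMIs, they were at 57.0 and 101, and at 25.7 and 113 CPM. They were thus far higher in members than in those cells in both libraries. Klrk1 (NKG2D) was at 530.2 and 441 CPM, and Klrc1 (the inhibitory NKG2A) at 141 and 138 CPM. Among Ly49 receptors, Klra8 (Ly49H) was at 537 and 279 CPM, Klra4 at 569 and 408, and Klra7 (Ly49G) at 317 and 416, so members of the family lay on both sides. Klra13-ps, a Ly49 pseudogene, was among the 12 lowest genes, at 972 and 413 CPM (2.36-fold lower, 2.01 to 2.76), in 35 of 48 and 47 of 101 members. Reads of Ly49 genes and pseudogenes can be shared, so their single values are uncertain. Cd226 (DNAM-1) was at 22.9 and 60.7 CPM, and the checkpoint genes Pdcd1 and Havcr2 were at 0 in all members. Lag3 had 5 and 0 UMIs.

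The cytotoxic list, which leaves out the class gene Gzmc, held 1 gene past 2-fold between the libraries. Of 21 genes 16 were tested, 6 above and 10 below 0, 1 past 2-fold higher and 0 lower, with a median of -0.07. Gzma was at 2396 and 2058 CPM in 28 of 48 and 64 of 101 members. Prf1 (perforin) was at 85.1 and 72.8 CPM, Nkg7 at 1646 and 1625, and Fasl (Fas ligand) at 101 and 104. None of these reached 2-fold. Gzmb was at 344 and 422 CPM, but 69 of its 105 placebo UMIs were in 1 member, and without the top member of each library its log2 ratio was 1.42 in place of 0.28. The 1 call, Gzmf at 19.6 and 98.3 CPM, rests on 1 placebo and 1 E2 member.

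Cytokine and chemokine genes showed the same dependence on single cells. Of 23 genes 15 were tested, 3 were past 2-fold higher (Ccl1, Il2 and Csf2) and 1 lower (Cxcl10), with a median of -0.10. Ccl1 had 0 and 123 UMIs (at least 15.2-fold higher against a floor of 3 UMIs per library), Il2 0 and 47 (at least 5.81-fold), and Csf2 3 and 63. A single E2 member of 14317 UMIs held 120 of the 123 Ccl1, 45 of the 47 Il2 and all 63 Csf2 UMIs. It also held 64 of 65 Areg (amphiregulin), 14 of 15 Il1rl1 (the IL-33 receptor) and all 6 Il13 UMIs, which are ILC2 genes, beside 108 Gzma, 7 Ncr1 and 2 Klrb1c UMIs and 0 of Eomes and Cd3e. Leaving out likely doublets did not remove it. Without the top member of each library Ccl1, Il2 and Csf2 lay at 0.25, 0.17 and -0.23. These libraries held 61 and 42 ILC2-like cells, with a Gata3 UMI and 2 or more UMIs of Gata3, Il1rl1, Il13 and Il5. They had no Ncr1, Klrb1c, Cpa3, Mcpt8 or Ms4a2 UMI, and the members' limits on CD3, Csf1r, Csf3r, Cd79a and Siglech. Ccl1 in these ILC2-like cells was at 107 and 1017 CPM.

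The chemokines made by most members did not differ by 2-fold. Ccl5 was at 3508 and 3204 CPM in 37 of 48 and 78 of 101 members, and Xcl1 at 1466 and 1599.7 CPM in 39 and 81. Ccl4 (MIP-1 beta) was at 808 and 558 CPM. Ifng, the main NK cytokine, had 21 and 33 UMIs in 9 and 22 members. Cxcl10, an interferon-induced chemokine, was at 124 and 40.1 CPM, with 33 of 38 placebo UMIs in 1 member, and lay at 0.53 without the top member of each library, the opposite sign. The interferon-gamma response list had 12 of 24 genes tested with a median of -0.01 and Cxcl10 its 1 call, and the type I interferon list 8 of 25 with a median of 0.26 and 0 calls.

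Cytokine receptors and signalling genes of the IL-2, IL-15, IL-12 and IL-18 pathways had 23 of 26 tested, 6 above and 17 below 0, 1 past 2-fold higher and 1 lower, with a median of -0.47. Il18r1, the IL-18 receptor chain, was at 180.0 and 75.3 CPM, and Socs2, a feedback inhibitor, had 3 and 49 UMIs. Neither stayed past 2-fold after thinning, at -0.73 and 0.56. Il2rb, the shared IL-2 and IL-15 receptor chain, was at 645 and 460.0 CPM, and Stat3 at 363 and 186 CPM.

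Of the TGF-beta pathway 14 of 24 genes were tested, 1 lay above and 13 below 0, and 1 was past 2-fold lower, with a median of -0.39. Pmepa1, a feedback inhibitor and target of TGF-beta, was that gene, at 189.8 and 74.0 CPM in 22 of 48 and 28 of 101 members. Tgfbr2, the receptor's ligand-binding chain, was at 128 and 69.2 CPM, Smad7, a feedback inhibitor, at 259 and 198, and Skil, a Smad repressor, at 141 and 127, all short of 2-fold. Bambi, a decoy receptor of the same family, was among the 12 lowest genes with 23 and 16 UMIs in 12 and 11 members. The ILC1 and residency list had 18 of 25 tested, 6 above and 12 below 0, with a median of -0.17 and 1 gene past 2-fold higher. That gene, Tmem176a, a membrane protein gene of ILC3 and myeloid cells, had 6 UMIs in 5 placebo and 64 in 19 E2 members (3.96-fold higher, 1.72 to 11.2). It is also the 1 call among 3 tested genes of the ILC3 marker list.

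Estrogen receptor transcripts were near the floor in the members. Esr1, the receptor that E2 binds, had 2 UMIs in 2 placebo members and 2 in 2 E2 members, and the membrane receptor Gper1 and the classical targets Pgr and Greb1 were at 0. Of 13 measured receptor, cofactor and target genes 6 were tested, 1 lay above and 5 below 0, and 0 were past 2-fold, with a median of -0.15. At this depth no presence or absence of the receptor in single cells can be read.

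Proliferation genes were higher in a small number of E2 members. Of 30 genes 10 were tested, 9 above and 1 below 0, and 3 were past 2-fold higher (Mki67, Top2a and Stmn1), with a median of 0.74. Mki67, the Ki-67 antigen, had 1 UMI in the placebo and 51 in the E2 members, a ratio of 18.9 (interval 3.25 to 762). Stmn1, the microtubule protein stathmin, had 14 and 162 UMIs. Members with 3 or more UMIs of 12 mitotic genes numbered 1 of 48 (2.08%, interval 0.0527 to 11.1%) and 11 of 101 (10.9%, interval 5.56 to 18.7%). After thinning, 1 or more such UMI was seen in 3 of 48 (6.25%) and 13 of 101 (12.9%) members, against 15.6% and 17.9% of CD8 T-like cells. Without the mitotic members Mki67 and Top2a lay at 0.37 and 0.18. Both are among the 12 mitotic genes that chose those members, so their fall follows from the removal and shows nothing further. Stmn1, which is not among the 12 mitotic genes, lay at 0.00. The histone genes Hist1h2ae and Hist1h2ap, also among the 12 highest, lay at 0.03 and -0.48.

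4 genes among the 12 highest were each found in 25 or more E2 members and stayed past 2-fold in all 14 alternatives. The 3 settings of the UMI filter among these leave a ratio as it is, and the filter at 100 UMIs would drop Dctpp1 and AA467197. Lgals3, which encodes galectin-3, a sugar-binding protein of activated leukocytes (chromosome 14, 47367751 to 47386160, plus strand), had 27 UMIs in 14 of 48 placebo members and 469 in 74 of 101 E2 members. It stood at 88.4 and 569 CPM, 6.44-fold higher (4.37 to 9.88), with a median of 0 and 2 UMIs per member. The thinned shares were 7 of 48 (14.6%, interval 6.07 to 27.8%) and 42 of 101 (41.6%, interval 31.9 to 51.8%). In the E2 library it was found in 40 of 49 Eomes-only members, 6 of 9 with Itgae or Gzmc alone, 15 of 16 with both and 13 of 27 with neither. CD8 T-like cells had 409 and 538 CPM and ILC2-like cells 243 and 243 CPM. The gap was thus wider in the members than in either of those populations, though the difference between populations was not tested.

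Tmsb15a, an actin-binding thymosin gene (chromosome X, 135718667 to 135725261, minus strand), had 7 UMIs in 3 of 48 placebo members and 155 in 32 of 101 E2 members, 8.21-fold higher in CPM (3.89 to 20.8). Its thinned shares were 2 of 48 (4.17%, interval 0.509 to 14.3%) and 20 of 101 (19.8%, interval 12.5 to 28.9%), and 0 CD8 T-like cells in either library had it, which allows shares of up to 1.30% and 2.14% by the limit of 3 counts (exact intervals end at 1.58% and 2.60%). In the E2 library it was found in 17 of 49 Eomes-only, 4 of 9 Itgae- or Gzmc-only, 8 of 16 double-positive and 3 of 27 other members. Dctpp1, a nucleotide-pool enzyme, had 1 UMI in the placebo and 51 in the E2 library, in 34 members, a ratio of 18.9 (3.25 to 762). AA467197, a small mitochondrial protein gene, had 2 and 58 UMIs in 2 and 25 members. S100a4 and S100a6, calcium-binding genes that were not in the rule for named genes, were picked after their values were seen. S100a4 was at 481 and 694 CPM but in 16 of 48 and 69 of 101 members, with thinned shares of 12 of 48 (25%, interval 13.6 to 39.6%) and 54 of 101 (53.5%, interval 43.3 to 63.5%). Among Gzmc-negative members alone the thinned shares were 7 of 41 (17.1%, interval 7.15 to 32.1%) and 37 of 76 (48.7%, interval 37.0 to 60.4%). With the 4 classes weighted alike the log2 ratio of S100a4 changed sign, from 0.51 to -0.34. S100a6 was at 1159 and 2062 CPM.

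**Figure D3:**
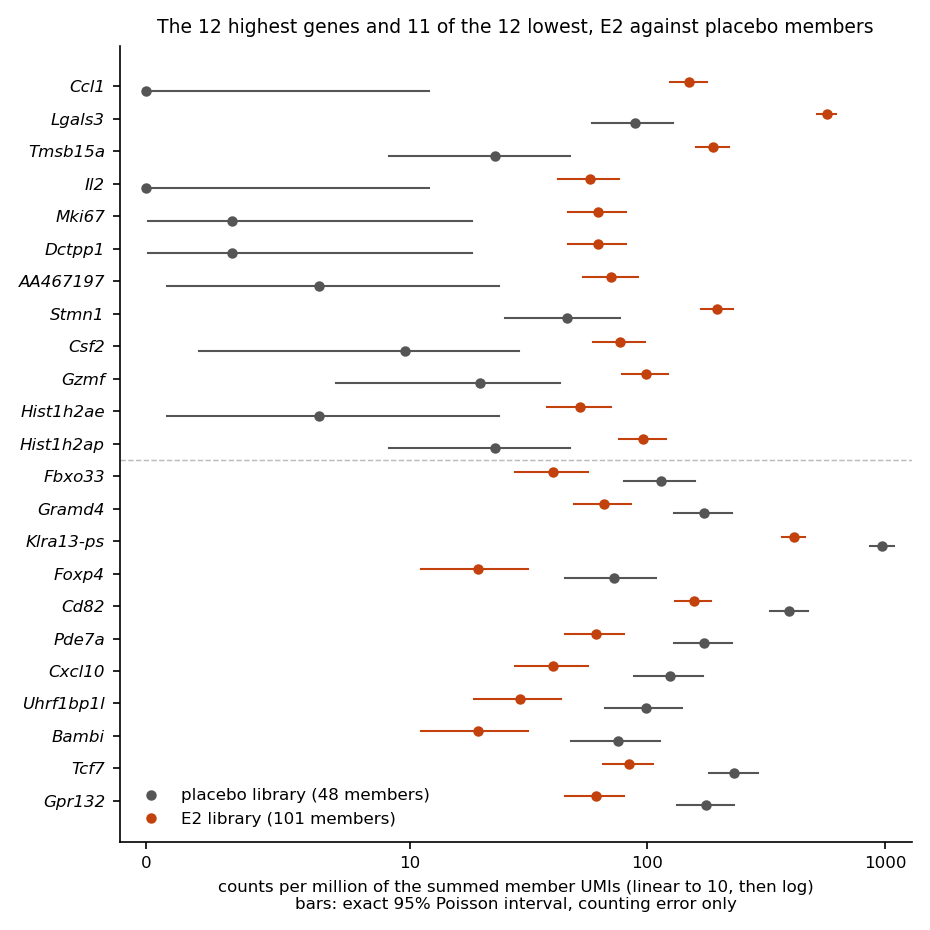
CPM of the 12 highest genes and 11 of the 12 lowest, E2 against placebo members, on a log axis with exact 95% Poisson intervals. Each gene has 1 point per library. Lgals3 stands at 88.4 and 569 CPM, and Tcf7 at 232 and 83.7 CPM.

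Other genes among the 12 lowest have no shared role. Gpr132, a lipid and proton-sensing receptor of leukocytes, was at 177 and 60.7 CPM, 2.91-fold lower (1.95 to 4.37), in 23 of 48 and 38 of 101 members. It stayed past 2-fold in all 14 alternatives, as did Klra13-ps, though the 3 settings of the UMI filter cannot change a ratio. Cd82, a tetraspanin, was at 396 and 157 CPM (2.53-fold lower, 1.96 to 3.27) but at -0.68 after thinning. Pde7a, a cyclic AMP phosphodiesterase, was at 173 and 60.7 CPM, and Gramd4, Fbxo33, Foxp4 and Uhrf1bp1l lay between -1.27 and -1.16 with 22 to 53 placebo UMIs each.

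Lists of metabolism, inhibitory receptors and the early response held no called gene. Glycolysis and hypoxia genes had 18 of 25 tested, 10 above and 8 below 0 and 0 called, with a median of 0.08. Gapdh, a glycolytic enzyme, was at 497 and 794 CPM, and the inhibitory receptor list had 4 of 15 tested with a median of 0.09 and 0 called. Immediate-early and dissociation stress genes had 19 of 26 tested, 4 above and 15 below 0, and 0 called, with a median of -0.29. Fos was at 337 and 237 CPM and Jun at 72.0 and 87.4 CPM, so the early-response genes lay on both sides. The part of tissue handling in the other differences was not tested.

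**Figure D4:**
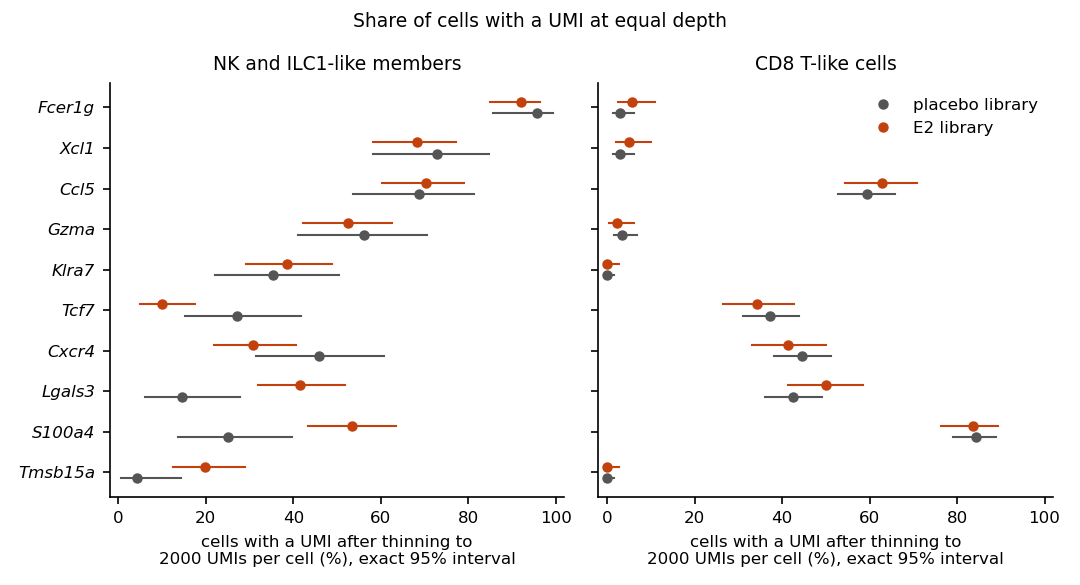
Share of members and of CD8 T-like cells with 1 or more UMI of each gene after thinning every cell to 2000 UMIs, with exact 95% binomial intervals, by library. Tcf7 is in a smaller share of E2 than placebo members and Lgals3, S100a4 and Tmsb15a in a larger share, while Xcl1, Ccl5, Gzma and Fcer1g are at similar shares in both libraries.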

How the data were processed

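Each library is a matrix of raw UMI counts per gene and barcode as deposited by the authors, with no normalization. The counts were made with Cell Ranger 3.1.0 on mm10, per the submitters' processing notes. The filter on barcodes before deposit: not given in the sources used here. Feature identifiers were matched to GENCODE M21 (47224 of 47730), symbols that occur more than once were summed, and barcodes under 200 genes were removed (15 placebo, 26 E2). The matrices held 24545595 UMIs over 3505 barcodes and 52628133 over 5791.

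UMIs were summed over members per library or class and divided by the total to give CPM. The log2 ratio was log2((CPM + 20)/(CPM + 20)), which understates the change of low genes, for genes with 30 or more UMIs, and a gene past 2-fold was called. No test was run, since each group is 1 library. Count shares have exact Clopper-Pearson intervals, sums exact Poisson intervals and ratios exact conditional binomial intervals, all at 95%, covering counting error only. The limit that a count of 0 allows is 3 counts of the total. Thinning drew 2000 UMIs per cell without replacement. The scripts were tested on simulated data. The strand setting of the counting was not found in the labels or headers, so reads of a gene and an antisense partner cannot be told apart.

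The members and the 27 gene lists were chosen with earlier results of these data known. Beside list members, the text names the 12 highest and 12 lowest genes by log2 ratio with 50 CPM or more in a library, and for the classes the 12 in each direction by the smaller absolute ratio of the libraries. Values of a few genes are not reported here. S100a4 and S100a6 were chosen after their values were seen, and so was the comparison of Gzmc-positive with Gzmc-negative members and its genes. Doublets were not removed from the values given. Scrublet's automatic threshold marked 0.0860% of placebo barcodes, too few to have worked, and 1.49% of E2 barcodes, so an alternative left out the 97 and 266 barcodes with the highest scores, 0.8% per 1000 barcodes. Other alternatives changed the pseudocount, the UMI filter, the scaling (edgeR TMM, DESeq2 size factors), the depth, the gate, the class rule and the weight of classes. Leaving out the top or the cycling members, weighting members alike and comparing with every positive member were chosen after seeing the data. Software was Python 3.11.15, numpy 2.4.6, scipy 1.17.1, pandas 2.3.3, scanpy 1.11.5, matplotlib 3.10.9, Biopython 1.88, R 4.3.3, edgeR 4.0.16 and DESeq2 1.42.0.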

Additional observations from a re-analysis of the deposited data

Results flagged for a closer look

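5 genes that may be named had log2 ratios of Eomes-only members over members with Itgae or Gzmc and no Eomes UMI that were past 2-fold in opposite directions in the 2 libraries, and these differences were not tested. Ccl3 (MIP-1 alpha) lay at -2.56 in the placebo and 1.10 in the E2 library, and Nfkbia, the inhibitor of NF-kappa-B, at -1.20 and 1.76. Stmn1 lay at -1.01 and 1.18. Gzmb lay at 2.96 and -3.45, with 0 UMIs in the 4 placebo cells of the smaller class and 111 in the 9 E2 cells. Klra4 lay at 2.48 and -1.13, with 3 and 70 UMIs in that class. All 17 placebo UMIs of Ccl3 in the smaller class came from 1 cell.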

How the results depend on the processing

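No paired analysis was possible because the labels carry no replicate numbers and each group is 1 library. The share of barcodes in the gate and the Itgae- or Gzmc-positive share moved by less than their intervals under every alternative run, while the Eomes-positive shares were 45.8% (placebo) and 33.7% (E2) after thinning. Genes higher in E2 numbered 150 at a pseudocount of 5 CPM, 12 at 50 CPM, 9 with 100 UMIs or more, 74 with TMM, 26 after thinning, 98 with classes weighted alike and 27 without cycling members. Genes lower in E2 numbered 121 and 8 at those pseudocounts, 52 with 10 UMIs or more, 15 with 100, 55 with no filter, 17 with TMM or DESeq2 size factors and 89 with classes alike. Removing doublets or members with any other-lineage UMI kept both counts within 1.5 times. Genes higher in Eomes-only members in both libraries numbered 98 and 12 at the pseudocounts, 143 with 10 UMIs or no filter, 8 with 100, 126 with TMM, 79 with DESeq2, 14 after thinning, 8 with double-positive members in both classes, 912 with Itgae alone (2 and 1 members), 17 against every positive member and 312 without the top member. Genes lower there numbered 7 at 50 CPM, 48 with 10 UMIs, 6 with 100, 64 with no filter, 6 with TMM, 13 with DESeq2, 4 after thinning, 3 with double-positive members, 102 with Itgae alone, 13 against every positive member and 4 without the top member. The sign reversed without the top member for Csf2 (-0.23), Cxcl10 (0.53), and in the placebo library Capg (1.18), Itga1 (1.01) and Ccl4 (2.97), and without cycling members for Hist1h2ap (-0.48). After thinning it reversed for Mtf2 (-0.31), Fhl2 (-0.71), Sirt7 (-0.79) and Hyou1 (1.48) in E2 and for Socs1 (-0.23), Arhgef2 (-0.23) and Ssbp3 (0.10) in placebo. With Itgae alone it reversed for Capg (1.42), Ccl4 (2.72) and Ssbp3 (1.63) in placebo and Ube2j2 (-0.23) and Fam46a (1.97) in E2. With double-positive members in both classes it reversed in placebo for Mtf2 (-0.067) and Socs1 (-0.019), and against every positive member for Mtf2 (-0.24), Socs1 (-0.19) and Arhgef2 (-0.069) in placebo and Ccl4 (0.21) in E2. Fewer genes or cells enter by construction with thinning, stricter filters and smaller classes. In the class comparison, leaving out the top member takes relatively more from the smaller class by construction. For the other changes the cause was not tested. Depth limits the members to sums of 305550 and 823907 UMIs, and the smaller class to 25350 and 76090.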
